A study of Mus musculus with 91 samples.

Results

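The 39 genes described here are the standard transcript markers of a dividing cell, 18 of DNA replication and 21 of mitosis. They were listed by symbol, with earlier results of these data known. Each was read from the probe set that carried its symbol alone and had the highest mean signal. By that rule 38 of the 39 were measured, out of 18193 genes in all. Ccnb1, a cyclin of mitotic entry, had no such probe set and has no value here. The measured genes comprised 18 replication and 20 mitosis members on 85 probe sets, and 28 members had more than 1 probe set.

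Replication genes are switched on by E2F factors as a cell commits to S phase: the MCM helicase is loaded by Cdc6 and Cdt1, the clamp Pcna tethers the polymerases, and Rrm1, Rrm2, Tyms and Tk1 supply deoxynucleotides. Mitosis genes are switched on later, when B-MYB and FOXM1 join the MuvB complex at promoters that carry CHR elements, and they encode the kinases, cyclins, motors and ubiquitin ligase parts that separate the chromosomes. In the adult liver hepatocytes are almost all quiescent, and several chemicals that activate CAR or PPARα are known to drive a wave of hepatocyte division in rodents during the first days of dosing.

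The livers came from adult male mice on a C57BL/6J background, assigned at random to groups with a planned size of 5, and 91 arrays in 19 groups were analysed (15 groups of 5 and 4 groups of 4). Phenobarbital (PB) was given at 0.05% w/v in drinking water for 28 or 56 days against water (H2O) of the same day. The other 8 treatments lasted 28 days. Cyproterone acetate (CPA, 160 mg/kg) and 1,4-dichlorobenzene (DCB, 600 mg/kg) were given by gavage and share 1 corn oil (CO) control group. Wy-14643 (WY, 100 mg/kg by gavage), piperonyl butoxide (PBO, 600 mg/kg i.p.), CITCO (10 mg/kg i.p. daily), pioglitazone (Pio, 100 mg/kg by gavage) and methapyrilene hydrochloride (MePy, 1000 ppm in food) were each set against their own carboxymethylcellulose (CMC) cohort, named Co1, Co2, Co4, Co5 and Co3 in that order. CITCO was also given to hCAR/hPXR mice, which carry the human receptors, against a CMC group of that strain. All values are log2 signals, a difference of 1 being 2-fold. The labels do not say outright that each array is a separate animal, so p-values measure the spread between these arrays. In whole liver a lower transcript from fewer cells of a type and one from less RNA per cell cannot be told apart.

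The promoters of these genes show the 2 regulatory classes in their letters. Mki67, Ube2c and Ccnb2 are shown because they had the largest rises of the mitosis members after Wy-14643, and Mcm6 because it had the largest rise of the replication members. Each line gives the 250 bases before the annotated start, from RefSeq on GRCm38.p6, read 5′ to 3′ on the gene's strand. The windows are chr7:135716380-135716629 on the minus strand for Mki67, chr2:164769679-164769928 on the plus strand for Ube2c, chr9:70421555-70421804 on the minus strand for Ccnb2 and chr1:128359706-128359955 on the minus strand for Mcm6. Capitals mark matches on either strand to the CHR core (TTTGAA or TTTAAA), the CCAAT box (CCAAT) and the E2F core, and neighbouring matches can overlap. The E2F core is spelled TTCCCGC in one form, TTGGCGC in another, TTCGCGC in the next and TTGCCGC in the last.
Mki67: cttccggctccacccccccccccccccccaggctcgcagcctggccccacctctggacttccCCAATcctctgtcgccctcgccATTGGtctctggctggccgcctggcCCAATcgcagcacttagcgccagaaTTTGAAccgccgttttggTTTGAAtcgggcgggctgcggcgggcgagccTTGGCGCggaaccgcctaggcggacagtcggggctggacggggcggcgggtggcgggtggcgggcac
Ube2c: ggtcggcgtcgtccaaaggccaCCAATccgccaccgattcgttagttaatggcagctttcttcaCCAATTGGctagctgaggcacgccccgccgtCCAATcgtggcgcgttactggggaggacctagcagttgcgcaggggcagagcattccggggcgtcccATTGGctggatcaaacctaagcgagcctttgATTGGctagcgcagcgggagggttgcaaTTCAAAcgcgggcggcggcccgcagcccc
Ccnb2: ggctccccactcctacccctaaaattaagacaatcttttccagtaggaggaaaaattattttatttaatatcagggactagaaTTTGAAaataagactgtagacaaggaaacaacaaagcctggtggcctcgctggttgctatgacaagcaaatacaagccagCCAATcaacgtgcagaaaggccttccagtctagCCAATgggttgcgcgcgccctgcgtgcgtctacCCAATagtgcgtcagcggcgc
Mcm6: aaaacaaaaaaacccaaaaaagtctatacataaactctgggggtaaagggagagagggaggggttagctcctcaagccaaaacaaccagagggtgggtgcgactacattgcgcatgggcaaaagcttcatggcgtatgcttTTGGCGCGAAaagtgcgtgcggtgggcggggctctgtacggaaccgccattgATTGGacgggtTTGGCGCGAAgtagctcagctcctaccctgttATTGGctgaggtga
The Mki67 window held 2 CHR, 3 CCAAT and 1 E2F core match. Those of Ube2c and Ccnb2 held 1 CHR match each, with 6 and 3 CCAAT matches and 0 E2F core matches. The Mcm6 window held 4 E2F core and 2 CCAAT matches and 0 CHR matches.

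The same split ran through both classes. RefSeq windows from 250 bases before to 50 after the start were held for 33 of the 39 members, 17 mitosis and 16 replication. Aurkb, Ccna2, Foxm1, Kif20a, Mcm4 and Gins1 had none. A CHR core was present in 15 of 17 mitosis windows (88.2%) and 5 of 16 replication windows (31.2%), beside 27.8% of the windows of all 27025 genes. An E2F core was present in 3 mitosis windows (17.6%) and 10 replication windows (62.5%), beside 9.69% of all. CCAAT boxes were in 88.2%, 62.5% and 37.9%, and both CHR and CCAAT in 82.4%, 18.8% and 10.9%, in the same order. A match is a string of letters in a window and not evidence of binding.

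Many mitosis members were dim in these livers. A floor of 5.35, the 95th percentile of 44 olfactory receptor probe sets, was passed in at least 4 arrays by 15 of the 18 replication members and 13 of the 20 mitosis members. A class level was computed per array as the mean over members of log2 signal minus the gene's mean over all arrays. Group means of the mitosis level ran from -0.22 after CPA to 0.55 after Wy-14643. The replication level ran from -0.19 in livers labelled Pio to 0.30 after DCB. The pooled SD within groups was 0.289 for the mitosis level and 0.112 for the replication level.

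**Figure D1:**
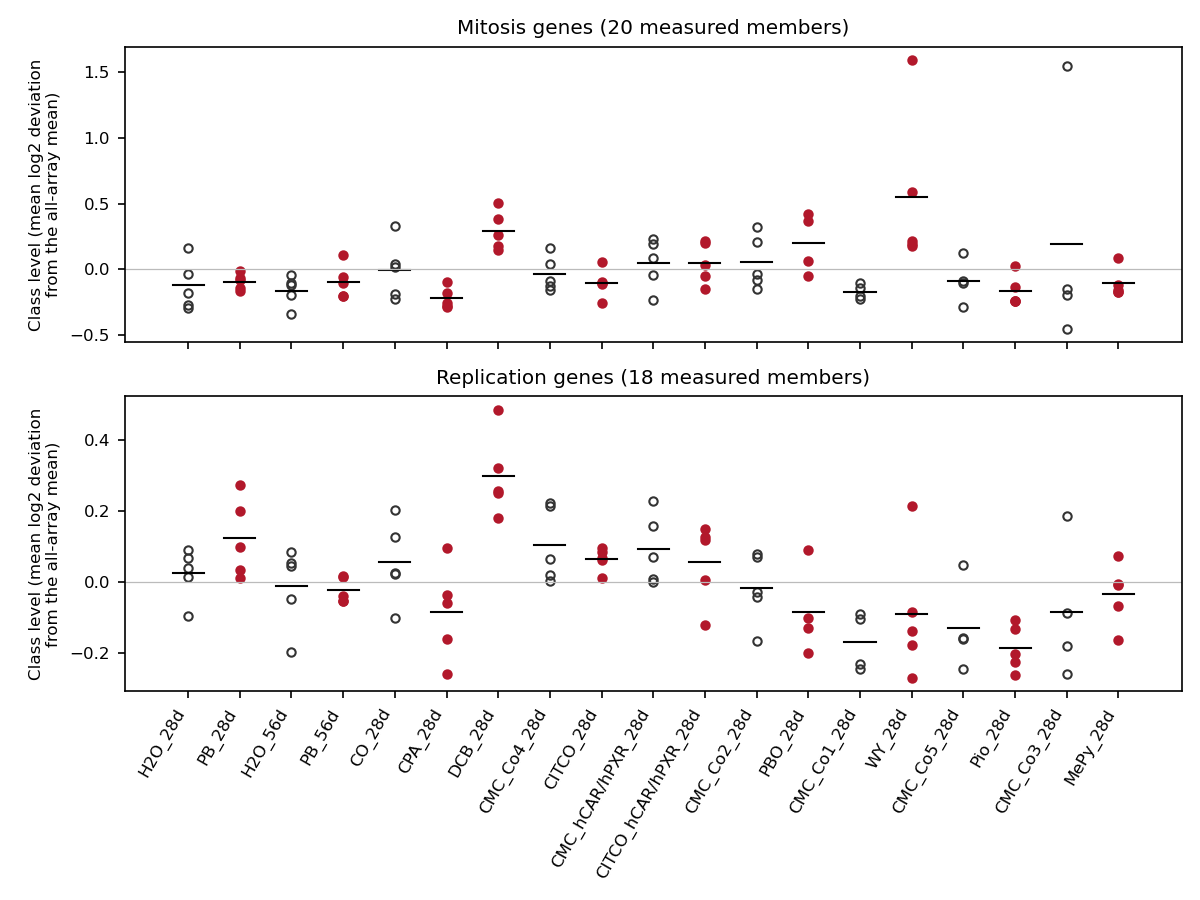
Mean log2 level of the replication and the mitosis members, relative to each gene's mean over 91 arrays, with 1 point per array, open circles for control groups, filled circles for treated groups and a bar at each group mean. Wy-14643 replicate 5 (1.59) and Co3 replicate 2 (1.55) stand above all other arrays in the mitosis panel.

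A pair of arrays stood apart in the mitosis genes, 1 treated and 1 control. Wy-14643 replicate 5 had a mitosis level of 1.59 against 0.18 to 0.58 in the other 4 Wy-14643 arrays, and 19 of 20 mitosis members were higher in it than in any of those, 13 of them at least 2-fold above their mean. Co3 replicate 2, a vehicle control, had 1.55 against -0.45 to -0.15, with 19 of 20 members above the rest of its group and 15 at least 2-fold. In that control liver Ube2c reached 8.66 against a mean of 4.70, Mki67 8.10 against 4.72 to 4.93, and Cdk1 9.001 against 6.23 to 6.48. Both arrays were also high in other lists. The level of the Kupffer cell and macrophage markers was 0.50 in Wy-14643 replicate 5 (others -0.79 to -0.02) and -0.28 in Co3 replicate 2 (others -1.45 to -0.75). That of the stellate cell markers was 1.15 (others -0.42 to 0.33) and 0.60 (others -0.54 to 0.10). The mean of the hepatocyte markers was 13.94 in Wy-14643 replicate 5, within the range of 13.47 to 14.24 over all arrays. Their level was highest of the group in both arrays, at -0.001 (others -0.20 to -0.02) and 0.18 (others 0.06 to 0.15). The endothelial level was 0.58 (others -0.12 to 0.35) and 0.04 (others -0.61 to 0.01). B and plasma cell markers were also highest in both. Bile duct markers were highest and erythroid markers lowest in Wy-14643 replicate 5 only. T and NK cell and neutrophil markers lay within the other arrays' range. The level of 10 genes known to answer to the chemicals was 0.13 in Co3 replicate 2 (others -0.51 to -0.34). In Wy-14643 replicate 5 it was 1.83, within the others (0.86 to 2.54). The part of the other cell types and of these 10 genes in the mitosis values was not tested. Results of the members that rest on either array are given with and without it.

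The arrays were otherwise alike in scale, with medians of 5.18 to 5.36 and a lowest median correlation with the others of 0.960, in Co2 replicates 1 and 2. Genes known to answer to the chemicals matched the labels in most groups. Cyp2b10, the CAR target, was higher by 7.93 after PB at 28 days, 6.98 at 56 days, 5.60 after CPA, 6.47 after DCB, 2.70 after piperonyl butoxide and 5.26 after CITCO in hCAR/hPXR mice, and it did not pass after CITCO in C57BL mice (0.42). Of 10 such genes 5 passed after Wy-14643, all higher. They were Fabp4 (5.14), the lipid droplet gene Cidea (5.03), Cd36 (2.69), Acot1 (2.29) and Cidec (1.41). Cyp4a14, also among the 10, did not pass. The livers labelled Pio and MePy went against their names. In livers labelled Pio Cyp2b10 was 11.61 against 5.55, and the PPARγ targets Cidea, Cidec and Fabp4 did not pass the test. In livers labelled MePy Cidea was higher by 3.11 and Fabp4 by 3.37, genes that also rose after Wy-14643. Both groups are therefore called by their labels throughout, with no direction drawn from the named drug. The labels pair Co5 with Pio and Co3 with MePy, and whether these controls belong to the other group was not tested. A "(2)" closes the titles of the PB livers of 28 days, and no label explains it.

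Wy-14643, an agonist of PPARα, was the treatment with the most changed members: 14 of 38 passed limma's test at an adjusted p below 0.05, against 10.6% of all 18193 genes (5.55% higher and 5.09% lower). With only the compared groups in the fit, 4 members and 4.35% of all genes passed. Of the 14, mitosis genes were most, with 10 of 20 higher and 0 lower, while 2 of 18 replication genes were higher and 2 lower. The mitosis members had a median difference of 0.64, the replication members 0.08 and all genes -0.04. Of the 20 mitosis members 19 had a positive difference, as did 11 of the 18 replication members.

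Mki67, the nuclear antigen used to count cycling cells, was 5.83, 5.88, 5.96, 7.21 and 8.30 in the 5 Wy-14643 livers and 5.36, 4.74, 4.56 and 5.00 in the 4 Co1 livers. Its mean was 6.63 ± 1.09 (SD, n = 5) against 4.92 ± 0.348 (n = 4), a rise of 1.72 ± 0.370 (SE; 95% interval 0.98 to 2.45) or 3.29-fold (adjusted p = 0.000742). Every treated liver lay above every control, and replicates 4 and 5 lay well above the other 3. Ube2c, the ubiquitin-conjugating enzyme of the anaphase-promoting complex, read 5.77, 5.84, 5.67, 6.80 and 8.44 against 4.88, 4.90, 4.68 and 4.74, a rise of 1.71 ± 0.414 (adjusted p = 0.00312). Ccnb2, a B-type cyclin, read 5.29, 5.44, 5.16, 6.00 and 7.56 against 4.92, 4.55, 4.14 and 4.73, a rise of 1.30 ± 0.324 (adjusted p = 0.00394). In both genes the groups did not overlap and the same pair of livers was highest.

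Cdk1, the kinase that drives entry into mitosis, was 7.22, 7.21, 7.62, 7.66 and 9.01 against 6.24, 6.54, 6.63 and 6.46. Its means of 7.74 ± 0.742 (n = 5) and 6.47 ± 0.166 (n = 4) differed by 1.28 ± 0.275 (95% interval 0.73 to 1.82), a 2.42-fold rise with an adjusted p of 0.000723. No control reached the lowest treated liver, and replicate 5 was the highest. Top2a, the topoisomerase that untangles sister chromatids, read 5.01, 5.51, 5.11, 5.77 and 7.40 against 4.71, 4.93, 4.18 and 4.30 (1.23 ± 0.310, adjusted p = 0.0045). Ccna2, the cyclin of S and G2 phase, read 6.02, 6.21, 6.24, 7.15 and 8.30 against 5.99, 5.47, 5.68 and 5.27 (1.18 ± 0.303, adjusted p = 0.00536). Both again had no overlap, with replicate 5 far above the rest. Other probe sets of Top2a gave -0.18 and 0.04.

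The other mitosis members that rose were Birc5 (survivin, of the chromosomal passenger complex) by 1.02, the cytokinesis motor Kif20a by 0.73, the midzone bundler Prc1 by 0.69 and the kinetochore motor Cenpe by 0.68. Other mitotic kinases had smaller differences that did not pass: Plk1 differed by 0.60 (adjusted p = 0.0572), Aurka by 0.59 (adjusted p = 0.0631), Bub1 by 0.49 (adjusted p = 0.0655) and Aurkb by 0.25. Foxm1, the transcription factor of the mitotic program, was the only mitosis member with a negative difference (-0.28, adjusted p = 0.164). For Cdc20, the activator of the anaphase-promoting complex, the brightest probe set differed by 0.23 and did not pass, while its other probe sets differed by 2.24 (adjusted p = 0.000885) and 1.16 (adjusted p = 0.0181).

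**Figure D2:**
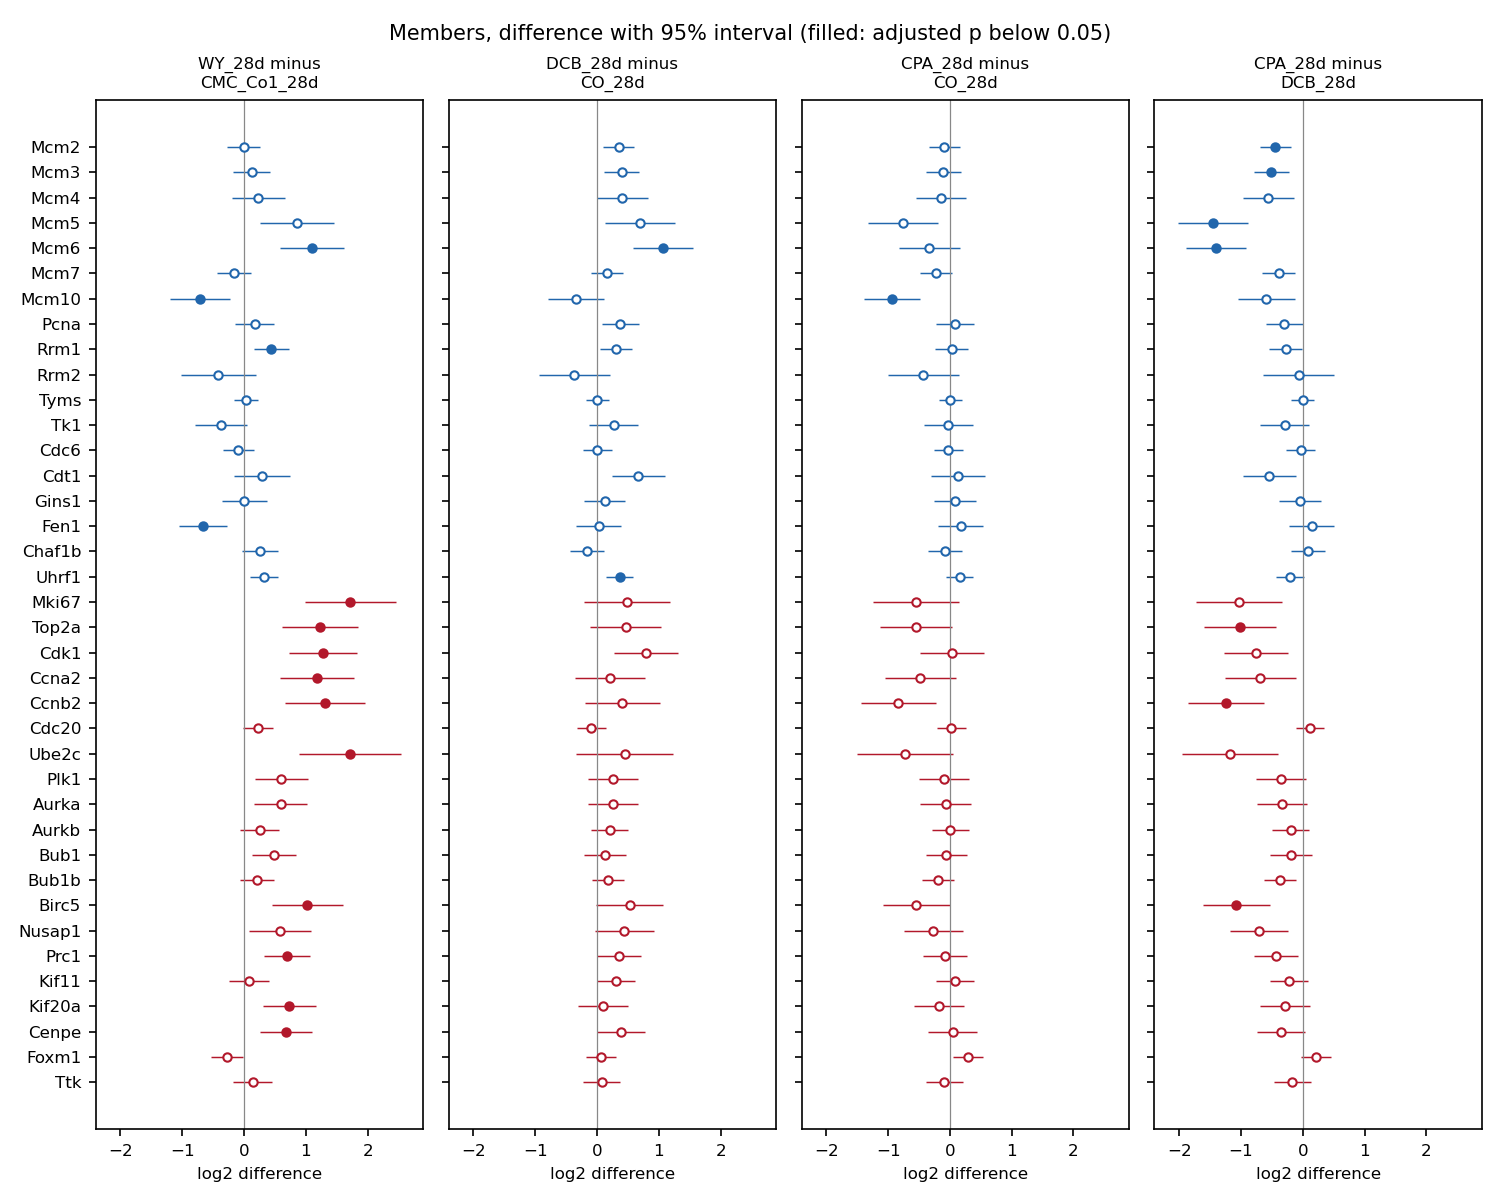
Log2 difference of each member with its 95% interval, replication members in blue and mitosis members in red, filled where the adjusted p was below 0.05. After Wy-14643 the mitosis members lie mostly right of 0 and the replication members on both sides of it.

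By the brightest probe set of each gene, the replication genes went in both directions after Wy-14643. Mcm6, a subunit of the replicative helicase, read 6.58, 6.86, 6.92, 6.83 and 7.90 against 6.48, 5.39, 5.79 and 6.03, a rise of 1.10 ± 0.259 (95% interval 0.58 to 1.61, adjusted p = 0.00238) with no overlap. Its partner subunit Mcm2 differed by -0.01 (95% interval -0.27 to 0.26), and Mcm5 by 0.85 ± 0.302 (adjusted p = 0.0537). Rrm1, the large subunit of ribonucleotide reductase, rose by 0.44 ± 0.141 (adjusted p = 0.0305), whereas the small subunit Rrm2 differed by -0.42 (95% interval -1.03 to 0.19). The clamp Pcna differed by 0.17 (95% interval -0.15 to 0.49).

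Fen1, the nuclease that trims Okazaki fragments, went the other way. It read 9.19, 9.07, 9.20, 8.95 and 8.97 after Wy-14643 against 9.62, 9.80, 9.90 and 9.66 in Co1, a fall of 0.66 on the log2 scale (SE 0.195, adjusted p = 0.0167) with no overlap. Mcm10, which helps to activate the helicase, read 9.72, 9.43, 9.45, 9.82 and 8.84 against 9.71, 10.30, 10.34 and 10.30, a difference of -0.71 ± 0.242 (adjusted p = 0.0448) with overlapping groups. The probe sets disagreed for both: the other set of Fen1 gave 0.25, and those of Mcm10 gave -0.37 and -0.14. With every probe set tested, 17 of the 85 sets of both classes were higher and 1 lower, in 15 genes. The share of all probe sets that passed is not given.

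The count fell without Wy-14643 replicate 5, when 5 members and 6.55% of all genes passed. These were Mki67 (1.30, adjusted p = 0.0162), Cdk1 (0.96, adjusted p = 0.0163), Mcm6 (0.88, adjusted p = 0.0280), Fen1 (-0.64, adjusted p = 0.0454) and Uhrf1 (0.39, adjusted p = 0.0406), the reader of newly replicated DNA methylation. Ube2c (1.22, adjusted p = 0.0508), Ccnb2 (0.89, adjusted p = 0.0677) and Top2a (0.82, adjusted p = 0.0771) then missed the threshold, with the remaining treated livers still above the controls. So did Ccna2 (0.80), Birc5 (0.73), Cenpe (0.51), Kif20a (0.51), Prc1 (0.40), Rrm1 (0.33) and Mcm10 (-0.56), each in its former direction. Without both arrays that stood apart, 11 members and 6.67% of all genes passed. Leaving out each liver in turn, Mki67, Cdk1 and Mcm6 passed every time, Mcm10 lost its call in 6 of 9 such fits, Rrm1 in 5 and Cenpe in 5. Kif20a also missed the threshold without Co1 replicate 4, Prc1 without Co1 replicate 1 and Fen1 without Co1 replicate 3 (-0.61).

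Co1 had the lowest mean Mcm5 and Mcm6 of the C57BL CMC cohorts, and the choice of control moved the result. Against the mean of the 5 cohorts, a comparison chosen after the data were seen, 15 members passed, beside 13.6% of all genes, and 13 of them were mitosis genes, all higher. Mki67 then differed by 1.23 (adjusted p = 0.00065), Cdk1 by 1.02 (adjusted p = 0.000123) and Plk1 by 0.50 (adjusted p = 0.0216). Mcm6 no longer passed (0.53, adjusted p = 0.0528), and Rrm2 was lower (-0.65, adjusted p = 0.0435). Rrm1 (0.27, adjusted p = 0.0765) and Fen1 (-0.27, adjusted p = 0.223) also lost their calls. Mcm10 remained lower (-0.57, adjusted p = 0.0223).

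**Figure D3:**
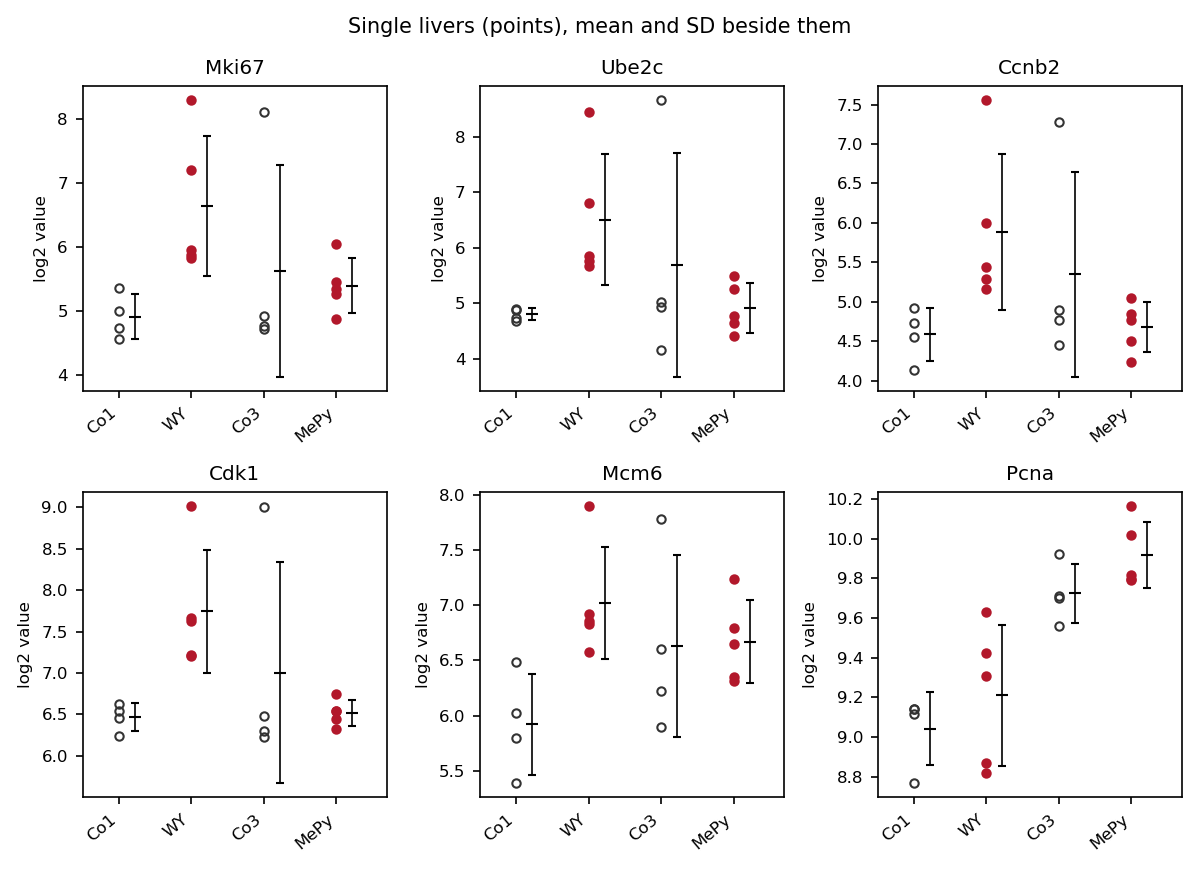
Log2 signal of Mki67, Ube2c, Ccnb2, Cdk1, Mcm6 and Pcna in each liver of Co1, Wy-14643, Co3 and the livers labelled MePy, with the group mean and SD. Replicate 5 of Wy-14643 and replicate 2 of Co3 reach like heights in the mitosis genes, for example 8.30 and 8.10 for Mki67, and the other 4 Wy-14643 livers lie above all Co1 livers in the 4 mitosis genes.

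Cell cycle genes outside the 39 were read in 3 further lists. Of 44 other mitosis genes 14 were higher and 1 lower after Wy-14643, with a median of 0.36. The largest rises were in Cdca3 (1.39), the kinetochore protein Spc25 (1.32), the cytokinesis factor Ect2 (1.26) and the spindle checkpoint protein Mad2l1 (0.96). Of 29 other replication genes 3 were higher and 1 lower, with a median of 0.03: Gins2 (0.66), the DNA ligase Lig1 (0.55), Dut (0.50) and Rfc5 (-0.33). Of 21 cell cycle regulators the inhibitor Cdkn1a (p21) rose by 1.40 ± 0.381 (adjusted p = 0.0099) and the inhibitor Cdkn1b (p27) fell by 0.52 (adjusted p = 0.00626). Wy-14643 replicate 5 is included in these values. Its level was 0.88 for the other mitosis genes (other Wy-14643 livers -0.04 to 0.32) and 0.48 for the regulators (-0.01 to 0.18). For the other replication genes it was 0.19 (-0.15 to -0.02). Counts without it are not given for these lists.

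Macrophage transcripts rose beside the mitosis genes. Of 11 Kupffer cell and macrophage markers 7 were higher after Wy-14643 and 0 lower, with a median of 1.29, led by C1qb (1.70), Cd5l (1.68), C1qa (1.61) and C1qc (1.53). The list's level ran from -0.79 to 0.50 in Wy-14643 livers and from -1.52 to -0.89 in Co1, so the groups did not overlap. Replicate 5 held the highest value, and the other Wy-14643 livers reached at most -0.02. Counts without replicate 5 are not given for these markers. Of 8 stellate cell markers 0 passed limma's test (median 0.30), and of 8 endothelial markers Lyve1 was higher (1.57). Of 9 hepatocyte markers 0 passed (median -0.01), with 2 at an unadjusted p below 0.05. Which cells held the mitosis transcripts cannot be read from whole liver, and the part of the macrophage markers in the result was not tested.

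After DCB both classes had like positive medians. The mitosis members had a median difference of 0.28 and the replication members 0.29, beside 0.02 for all genes, with 19 of 20 and 15 of 18 members positive. Few single genes passed limma's test: 2 of 38, both replication genes and both higher, beside 3.83% of all genes (2.15% higher and 1.67% lower). Of the mitosis genes 0 of 20 passed. An unadjusted p below 0.05 was held by 9 of 18 replication members and 3 of 20 mitosis members.

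Mcm6 had the clearest change after DCB. It read 7.66, 8.05, 7.78, 8.69 and 8.28 in the DCB livers and 6.85, 7.52, 7.47, 6.93 and 6.35 in the corn oil livers. Means of 8.09 ± 0.409 and 7.02 ± 0.486 (n = 5 each) differed by 1.07 ± 0.245 (95% interval 0.58 to 1.56), a 2.1-fold rise with an adjusted p of 0.00276. The groups did not overlap. Uhrf1 read 4.68, 4.48, 4.52, 4.35 and 4.41 against 4.34, 4.10, 3.74, 4.25 and 4.18, a rise of 0.37 ± 0.111 (adjusted p = 0.0404). Its values lie below the floor, and its call was lost in 6 of 10 fits that left out a liver of either group, at differences of 0.27 to 0.38. Cdk1 read 7.91, 7.83, 7.49, 7.45 and 7.58 against 6.63, 6.99, 6.94, 7.10 and 6.64, and its difference of 0.79 ± 0.259 missed the threshold (adjusted p = 0.0665) although the groups did not overlap. The origin licensing factor Cdt1 (0.67, adjusted p = 0.0601), Mcm5 (0.70, adjusted p = 0.18), Mcm3 (0.40), Pcna (0.38) and Mcm2 (0.35) were likewise positive without passing, and Mki67 differed by 0.49 ± 0.349.

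The wider lists held called genes of both kinds after DCB. Of 29 other replication genes 4 were higher and 0 lower (median 0.25), namely the clamp loader subunit Rfc3 (0.86), the single-strand binding proteins Rpa2 (0.78) and Rpa1 (0.44), and the histone chaperone Asf1b (0.52). Of 44 other mitosis genes 6 were higher (median 0.19), including Ect2 (1.35), Trip13 (1.23), the condensin subunit Smc2 (0.83) and Spc24 (0.77). Cdkn2c, an inhibitor of the G1 kinases, rose by 1.05 (adjusted p = 1.57e-06). Of the Kupffer cell and macrophage markers 0 of 11 passed limma's test (median 0.20). Among 9 hepatocyte markers Hnf4a (-0.54), Fgb (-0.37) and Apoa1 (-0.15) were lower, and the part of this in the result was not tested.

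CPA was set against the same corn oil livers. The medians lay near 0, -0.05 for replication, -0.09 for mitosis and 0.02 for all genes. Only Mcm10 of the 38 members passed, and it was lower, beside 5.32% of all genes (2.62% higher and 2.7% lower). It read 9.66, 8.90, 9.83, 9.97 and 8.97 against 10.44, 10.21, 10.36, 10.87 and 10.11, a fall of 0.93 on the log2 scale (SE 0.229, adjusted p = 0.00594). The groups did not overlap, but the other probe sets of Mcm10 gave -0.08 and 0.14. Mki67 was 4.77, 5.01, 4.86, 4.72 and 4.76 against 5.17, 5.66, 5.28, 5.69 and 5.07, every CPA liver below every control, and its difference of -0.55 ± 0.349 did not pass (adjusted p = 0.429). Mcm5 (-0.75), Ccnb2 (-0.83) and Ube2c (-0.73) also lay lower without passing. Of the other replication genes Pola1, the catalytic subunit of the priming polymerase, fell by 0.71, and of the other mitosis genes Cks2, a subunit of the cyclin-dependent kinases, rose by 0.67. Among 21 regulators Cdkn2c (0.58) and E2f3 (0.41) rose and Wee1 (-1.14) fell. Of 9 hepatocyte markers Hnf4a (-0.47) and Apoa1 (-0.14) were lower. Col3a1 (1 of 8 stellate cell markers, -1.49, list median -0.59) and Blnk (1 of 8 B and plasma cell markers, -1.05) were lower too. The endothelial median was -0.36, with 0 of 8 passing and 4 at an unadjusted p below 0.05. List medians were -0.09 for Kupffer cell and macrophage, 0.03 for erythroid, 0.05 for neutrophil and 0.19 for bile duct markers. The part of these markers was not tested.

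Set directly against each other, the CPA and DCB livers differed in 7 of 38 members, all lower after CPA, beside 4.11% of all genes (1.74% higher and 2.37% lower). They were the helicase genes Mcm2, Mcm3, Mcm5 and Mcm6 and the mitosis genes Top2a, Ccnb2 and Birc5. The medians were -0.30 for replication, -0.36 for mitosis and 0.00 for all genes, with 15 of 18 and 18 of 20 members negative.

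Mcm5 was 5.85, 6.15, 6.37, 6.56 and 5.76 after CPA and 7.25, 7.87, 7.38, 8.03 and 7.42 after DCB, a difference of -1.45 ± 0.285 (95% interval -2.02 to -0.89) with an adjusted p of 0.000265. Mcm6 was 6.26, 6.91, 6.80, 6.96 and 6.54 after CPA, below all 5 DCB values given above (-1.40 ± 0.245, adjusted p = 3.42e-05), and another of its probe sets gave -1.93. The highest CPA liver and the lowest DCB liver were 6.56 and 7.25 for Mcm5 and 6.96 and 7.66 for Mcm6. Ccnb2 read 3.97, 4.69, 4.71, 4.06 and 4.53 against 5.31, 6.13, 5.62, 5.17 and 5.93 (-1.24 ± 0.305, adjusted p = 0.00603). Birc5 read 4.06, 4.59, 4.00, 4.48 and 3.94 against 5.28, 5.47, 5.41, 4.79 and 5.48 (-1.07 ± 0.272, adjusted p = 0.00824). These 4 genes did not overlap between groups and passed in each fit that left out 1 liver. The share of all genes without overlap is not given here.

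Top2a differed by -1.02 ± 0.292 (adjusted p = 0.0259), Mcm3 by -0.51 (adjusted p = 0.0195) and Mcm2 by -0.44 (adjusted p = 0.024). Their calls lay near the threshold. Top2a missed it in 5 such fits (differences of -1.18 to -0.85 over all 10), Mcm2 in 5 (-0.53 to -0.27, the smallest without DCB replicate 4) and Mcm3 in 4 (-0.61 to -0.39). Cdk1 (-0.76, adjusted p = 0.0829), Ube2c (-1.17, adjusted p = 0.0736) and Nusap1 (-0.71, adjusted p = 0.0748), a spindle microtubule protein, had no overlap either but did not pass, and Mki67 differed by -1.04 (adjusted p = 0.0772). The spread is shared by all 19 groups, and without the 2 arrays that stood apart, a setting added after seeing the data, 13 members passed beside 4.31% of all genes, the 7 above among them, with Mki67 at an adjusted p of 0.00541 and Cdk1 at 0.00267. Rrm2 (-0.06) and Pcna (-0.30) did not pass.

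**Figure D4:**
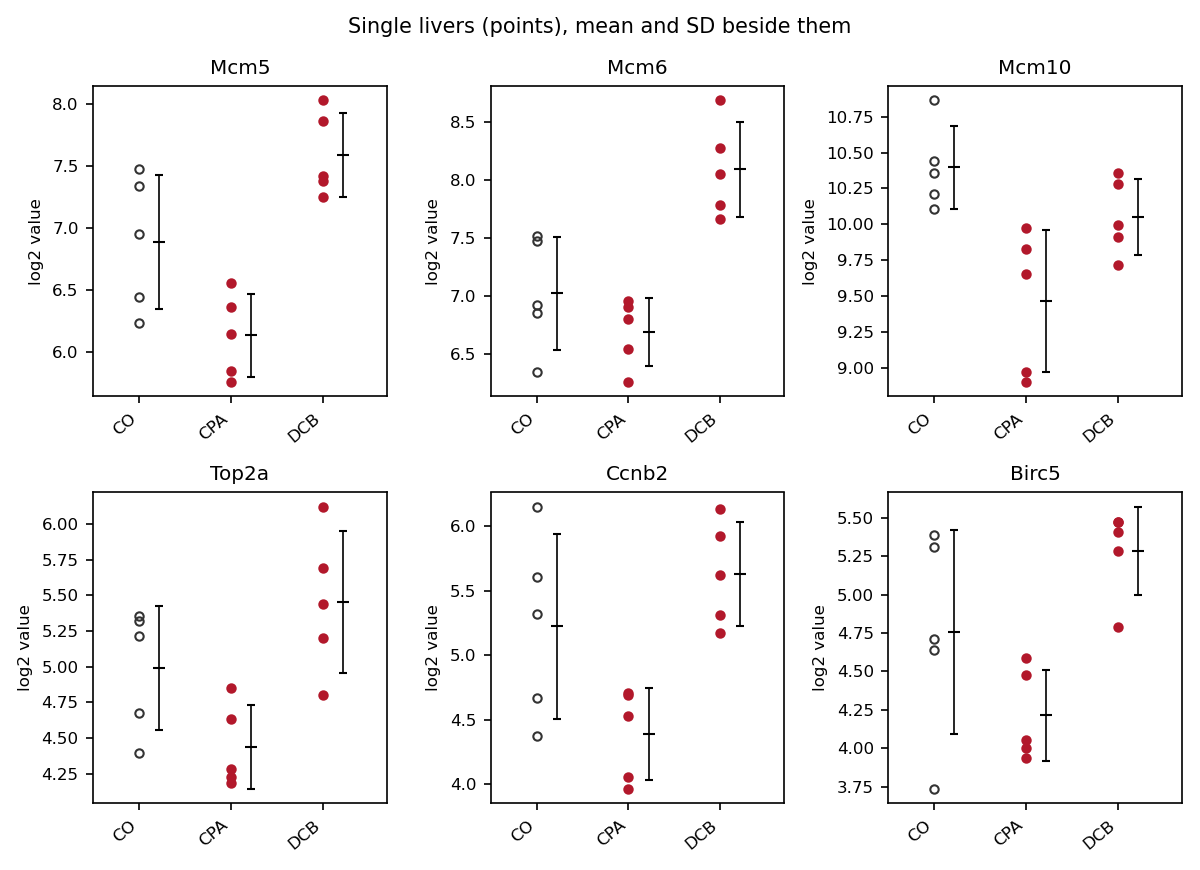
Log2 signal of Mcm5, Mcm6, Mcm10, Top2a, Ccnb2 and Birc5 in the 5 livers each of corn oil, CPA and DCB, with group mean and SD. The corn oil mean lies between those of the treated groups for Mcm5, Mcm6, Ccnb2 and Birc5, and CPA has the lowest mean for Mcm10.

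Other cell cycle genes were lower in CPA than in DCB livers as well. Of 29 other replication genes 8 were lower and 0 higher (median -0.30), with Prim1 (-0.86), Pola1 (-0.86), Lig1 (-0.70) and Rpa2 (-0.56) first. Of 44 other mitosis genes 9 were lower and 0 higher (median -0.26), with Spc25 (-1.25), Trip13 (-1.20), Ect2 (-1.17) and Smc2 (-0.97) first. Wee1 (-0.95) and Chek1 (-0.81), kinases that hold back mitotic entry, and Rbl1 (-0.84) were lower among 21 regulators. Markers of several other cells lay lower as well, with medians of -0.44 over 8 endothelial markers, -0.42 over 11 Kupffer cell and macrophage markers, -0.37 over B and plasma cell markers, -0.32 over stellate cell markers and -0.26 over T and NK cell markers. In the first 2 lists 0 passed limma's test, with 4 endothelial and 1 Kupffer cell and macrophage markers at an unadjusted p below 0.05, while Col3a1 (1 of 8 stellate cell markers, -1.82), Gzma (1 of 9 T and NK cell markers, -1.15), Cd22 (1 of 8 B and plasma cell markers, -0.60) and Tfrc (1 of 8 erythroid markers, -0.96) were lower. The erythroid list as a whole had a median of -0.02, with 4 of 8 positive. Medians were positive for neutrophil markers (0.15, 8 of 8 positive), bile duct markers (0.14) and hepatocyte markers (0.01). The part of these cell types in the result was not tested.

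The response to Wy-14643 was set against that to DCB in a contrast added after the values were seen. It asked whether the mitosis genes rose more with the one than with the other. Of 38 members 0 passed limma's test (3.72% of all genes did), with 3 replication and 5 mitosis members at an unadjusted p below 0.05. Mki67 differed by 1.23 (95% interval 0.22 to 2.24, adjusted p = 0.163) and Ube2c by 1.26 (0.13 to 2.39, adjusted p = 0.21). For Mcm6 the responses differed by 0.03 (-0.68 to 0.74). Cdk1 (0.48, 95% interval -0.27 to 1.24) and Top2a (0.77, 95% interval -0.08 to 1.62) lay between.

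Phenobarbital, the classical CAR activator, left the members near their water controls after 28 days. The medians were 0.08 for replication, 0.02 for mitosis and 0.01 for all genes. Only Uhrf1 passed, and it was higher, beside 0.967% of all genes (0.572% higher and 0.396% lower). It read 4.84, 4.36, 4.72, 4.49 and 4.79 against 4.51, 4.06, 4.05, 4.25 and 4.29, a difference of 0.41 ± 0.111 (adjusted p = 0.0492) with overlapping groups below the floor. The call was lost in 8 of 10 fits that left out a liver, at 0.35 to 0.44. Mki67 differed by 0.09 (95% interval -0.61 to 0.78), Top2a by 0.04, Cdk1 by -0.22 and Mcm6 by 0.56 ± 0.245 (adjusted p = 0.419). Rrm2 was 6.31, 6.79, 7.18, 7.06 and 7.08 against 7.43, 7.27, 7.67, 7.27 and 7.38, below all controls without passing (-0.52, adjusted p = 0.607). Of 44 other mitosis genes 1 passed, Spc25, which fell by 1.14. The list had a median of 0.03, with 28 of 44 positive.

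After 56 days of phenobarbital 0 members passed limma's test (0.566% of all genes did), with 1 replication and 0 mitosis members at an unadjusted p below 0.05. Mki67 differed by 0.03 (95% interval -0.67 to 0.72), Mcm6 by 0.18 and Uhrf1 by 0.02. The difference between the 2 times was tested itself, and 0 members passed limma's test (0% of all genes did; 1 replication and 0 mitosis members had an unadjusted p below 0.05). For Uhrf1 it was -0.39 (95% interval -0.70 to -0.07, adjusted p = 0.907). The water controls of the 2 times differed in 0 members by limma's test (0.033% of all genes), with 1 replication member at an unadjusted p below 0.05. That member was Rrm2, at 7.03, 6.69, 6.93, 6.71 and 6.56 at 56 days, below all 5 values of 28 days given above (-0.62 ± 0.289, adjusted p = 0.782).

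CITCO, an agonist of the human CAR, was given to both strains. In C57BL livers 0 members passed limma's test (0.0055% of all genes did; 2 replication and 1 mitosis members had an unadjusted p below 0.05), and Mki67 differed by -0.45 (95% interval -1.14 to 0.25). In hCAR/hPXR livers 0 passed (0.0989% of all genes did; 1 replication and 0 mitosis members had an unadjusted p below 0.05), and Mki67 differed by -0.19 (-0.89 to 0.50). The helicase component Gins1 in hCAR/hPXR livers read 6.59, 6.51, 6.40, 6.79 and 6.47 against 6.91, 6.83, 7.20, 7.20 and 6.86, all below control, with -0.45 and an adjusted p of 0.47. The responses of the strains differed in 0 members by limma's test (0.0055% of all genes; 0 members had an unadjusted p below 0.05), and for Mki67 by 0.26 (-0.72 to 1.24).

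Piperonyl butoxide, a pesticide synergist, changed 0 members by limma's test (0.808% of all genes passed; 5 replication and 1 mitosis members had an unadjusted p below 0.05). The medians pointed apart, -0.13 for replication and 0.16 for mitosis beside 0.01 for all genes. Fen1 was 9.58, 9.56, 9.75 and 9.58 against 9.32, 9.51, 8.91, 8.97 and 9.21, above all controls without passing (0.43, adjusted p = 0.327). Mki67 differed by 0.06, Ube2c by 0.59, Top2a by -0.10 and Pcna by -0.33. Without PBO replicate 2, Pcna passed as lower (-0.62). Against the mean of the 5 CMC cohorts, a control chosen after the data were seen, it differed by -1.03 (adjusted p = 1.6e-09). Co2 itself had the lowest mean Pcna of these cohorts (8.63, highest 9.90), so that value also holds the difference between cohorts.

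Livers labelled Pio had 0 changed members by limma's test (0.022% of all genes passed; 2 replication and 0 mitosis members had an unadjusted p below 0.05). Mcm7 was 8.55, 8.74, 8.84, 8.74 and 8.47 against 9.03, 9.39, 8.96 and 9.20, all below control, with -0.48 and an adjusted p of 0.23. Pcna was 9.57, 9.79, 9.51, 9.62 and 9.74 against 9.35, 9.37, 9.43 and 9.18, all above, with 0.31 and an adjusted p of 0.674. The helicase subunit and the clamp lay on opposite sides of their controls, neither passing, and Mki67 differed by -0.14.

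Livers labelled MePy had 0 changed members by limma's test (0.181% of all genes passed; 0 replication and 3 mitosis members had an unadjusted p below 0.05), and their comparison turns on 1 control liver. Mki67 was 4.88, 5.27, 6.05, 5.36 and 5.46 against 4.93, 8.10, 4.72 and 4.77, a difference of -0.23 (95% interval -0.96 to 0.51). With all Co3 livers 1 of 20 mitosis members had a positive difference and the median was -0.27. Without Co3 replicate 2 the median was 0.10. Ube2c (-0.78), Ccnb2 (-0.67) and Cdk1 (-0.48) were negative with it included. Of the Kupffer cell and macrophage markers all 11 had positive differences (median 0.97) and 0 passed.

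The vehicle controls themselves differed in these genes. Among the 5 C57BL CMC cohorts 11 members passed limma's F test, 9 replication and 2 mitosis, near the share of all genes that did (33.2%). Pcna had the smallest p, at 9.04 ± 0.184 (SD, n = 4) in Co1, 8.63 ± 0.537 (n = 5) in Co2, 9.72 ± 0.15 (n = 4) in Co3, 9.90 ± 0.185 (n = 5) in Co4 and 9.33 ± 0.11 (n = 4) in Co5 (adjusted p = 2.11e-10). Every Co4 liver (9.62 to 10.09) lay above every Co1, Co2 and Co5 liver. Mcm6 had means of 5.92, 6.25, 6.63, 7.19 and 6.47 in Co1 to Co5 (adjusted p = 0.000567), and Mcm5 had 5.57, 6.48, 6.43, 6.94 and 5.81 (adjusted p = 0.000823). Co4 was thus highest and Co1 lowest for both helicase genes. Top2a was highest in Co2, with 4.53, 5.76, 4.85, 4.90 and 4.67 in the same order (adjusted p = 0.00519).

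The others that passed were Tyms, Uhrf1, Mcm7, Rrm2, Cdc20, the chromatin assembly subunit Chaf1b and Cdt1, with adjusted p-values from 0.00157 to 0.0487. Mki67 and Cdk1 did not pass. In the same test 10 of 11 Kupffer cell and macrophage markers differed between the cohorts, and their part in the result was not tested. The lowest and the highest Pcna, in Co2 and Co4, were in the control cohorts of the 2 treatments given i.p. to C57BL mice.

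**Figure D5:**
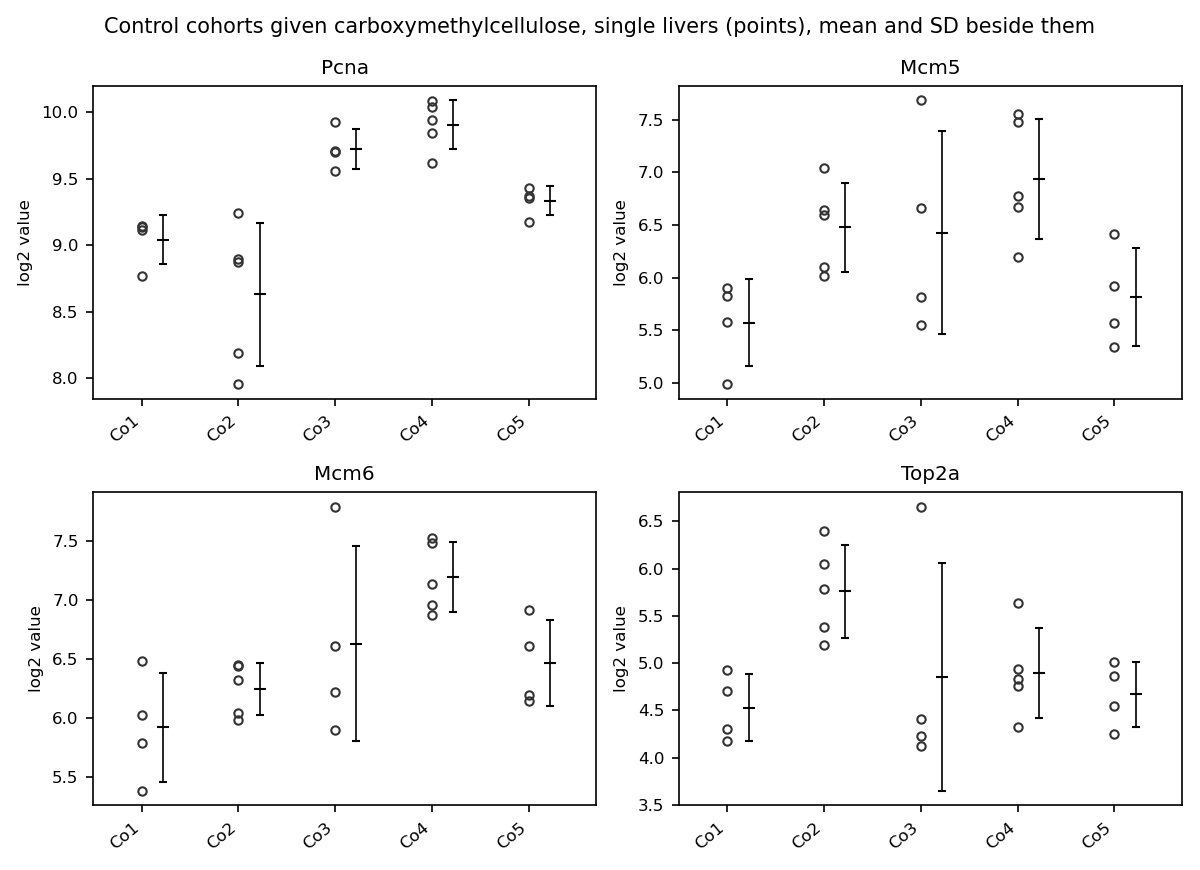
Log2 signal of Pcna, Mcm5, Mcm6 and Top2a in each liver of the 5 C57BL CMC control cohorts, with the mean and SD of each. Co4 is highest for Pcna, Mcm5 and Mcm6, and Co2 is highest for Top2a.

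Within groups the mitosis genes varied with each other from liver to liver, and the replication genes did so little. Over the deviations of all 91 arrays from their group means, the median correlation between pairs was 0.545 for mitosis members, 0.0636 for replication members and 0.146 across the classes. Without the 2 arrays that stood apart (89 arrays) these were 0.333, 0.0403 and 0.0828. Ube2c followed the mean of the other mitosis members most closely (r = 0.923; 0.865 without the 2 arrays), then Ccna2 (0.882; 0.808) and Cdk1 (0.876; 0.768). Foxm1 did not follow them (-0.0259). Of the replication genes Mcm5 (0.584; 0.510), Mcm6 (0.517; 0.323) and Cdt1 (0.458; 0.419) were nearest to the mitosis level, and Fen1 was at -0.221 (-0.0794). The order of Mcm6 and Cdt1 turned without the 2 arrays. These correlations rest on the brightest probe set of each gene, and probe sets of Fen1, Mcm10 and Cdc20 disagreed after Wy-14643. They also share arrays and normalization, and many members lie near the floor, so they are a description only.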

How the data were processed

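Whole-liver RNA was measured on 91 Affymetrix mouse arrays. The authors deposited log2 signals of probe sets, and the submitters' processing notes name RMA. Its version and the build are not given in these sources. Of 45037 probe sets 34945 carried 1 gene symbol, 932 several and 9160 none, by the platform annotation. Of the probe sets with a gene's symbol alone, the one of highest mean stood for it, giving 18193 genes. A means model of 19 groups was fitted to all arrays in limma 3.58.1 under R 4.3.3 (lmFit, eBayes with trend, 72 residual degrees of freedom). Tests were two-sided, with Benjamini-Hochberg adjustment over all genes and a threshold of 0.05. The script was tested on simulated data. Arrays carry no read depth, and their number limits the precision.

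The members and lists were chosen with earlier results of these data known. All members could be named. In each comparison statistics went to the members that passed, at most 6 per class with the largest difference, to Mki67, Top2a, Cdk1, Mcm2, Mcm6, Pcna and Rrm2, and to at most 4 genes of each other list. Members beyond these are named for groups that did not overlap and were chosen after their values were seen. For no comparison is the share of all genes without overlap given, so a lack of overlap is a description only. Alternatives changed the groups in the fit, the replicate block, the trend, array weights, scaling, the probe set rule, the filter on dim genes and each array in turn. Equal replicate numbers did not pair the arrays: correlations of their deviations ran from -0.321 to 0.223. Further settings were added after seeing the data.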

Additional observations from a re-analysis of the deposited data

Results flagged for a closer look

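Mki67, Top2a, Cdk1, Mcm2, Mcm6, Pcna, Rrm2 and both class levels were examined in each of the 19 groups for a liver far from the rest of its group, and 14 of 171 sets of values held one. Chance alone gives about 1 in 20. Co3 replicate 2, a CMC control, was far above its group in the mitosis level (1.55, next -0.15), Mki67 (8.10, next 4.93), Cdk1 (9.001, next 6.48) and Top2a (6.65, next 4.41). Wy-14643 replicate 5 was far above its group in the mitosis level (1.59, next 0.58), Cdk1 (9.01, next 7.66) and Mcm6 (7.90, next 6.92). Smaller gaps at the high end were seen for Cdk1 in livers labelled Pio (7.04, next 6.31), Mcm2 after CPA (6.96, next 6.62), the mitosis level in livers labelled MePy (0.0891, next -0.12), Top2a in the water controls of 56 days (5.11, next 4.62) and Top2a after piperonyl butoxide (5.99, next 5.55). At the low end lay Pcna in Co1 (8.77, next 9.12) and Rrm2 in the CMC group of hCAR/hPXR mice (5.98, next 7.96).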

How the results depend on the processing

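Counts of members that passed moved with the fit, and the cause of each change was not tested. The share of all genes that passed under a setting is given only where it stands above. The other counts cannot be set against it and are a description only. With only the compared groups in the fit, PB at 28 days gave 0 in place of 1, CPA 0 in place of 1, Wy-14643 4 in place of 14 and the CMC cohorts 7 in place of 11. With a replicate block added to that fit these were 0, 2, 4 and 7; equal numbers did not pair the arrays. The single PB call was also lost (0) without the mean-variance trend, with robust empirical Bayes, with equalised medians, with renewed quantile normalization, with the mean of a gene's probe sets, with every probe set tested and without dim genes. Array weights gave 2 for CPA, 1 for piperonyl butoxide and 12 for CPA against DCB (7). Equalised medians gave 1 for DCB (2). The mean of a gene's probe sets gave 0 for CPA, 4 for DCB and 6 for the cohorts. Testing every probe set gave 2 for CPA, 1 for piperonyl butoxide and 1 for Wy-14643 against DCB (0). Leaving out each liver in turn gave 0 to 1 for PB at 28 days, 1 to 2 for CPA, 1 to 2 for DCB, 5 to 17 for Wy-14643, 5 to 9 for CPA against DCB, 0 to 1 for piperonyl butoxide and 8 to 13 for the cohorts.

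The settings chosen after seeing the data moved further counts. Without the 2 arrays highest in mitosis genes, CPA gave 2 and CPA against DCB 13. Without the 2 of lowest correlation, piperonyl butoxide gave 1 and the cohorts 6. Against the mean of the 5 CMC cohorts, CITCO in C57BL gave 4, piperonyl butoxide 5, livers labelled Pio 2 and livers labelled MePy 2. With this control 13.6% of all genes passed after Wy-14643, and the shares for the other groups are not given. There the sign turned for Pcna after CITCO (0.45) and Top2a after piperonyl butoxide (0.71). Near the floor, signal over background limits the dimmer mitosis genes; 28 of 38 members passed it in at least 4 arrays.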
